A study of Mus musculus with 295 samples.

Results

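The cytosolic ribosomal protein genes were described in adipose tissue RNA of 295 F2 mice, each measured on 1 two-colour array against a common pool made from all of them. Genes were taken by symbol: those starting with Rpl or Rps and a digit, or with Rplp and a digit, without the Rps6k kinase genes, and with probes measured on 90% or more of the arrays. Of 48 genes with such a symbol 42 were kept, with 141 of their 183 probes, out of 11454 named genes and 22894 probes in all. They comprise 8 small-subunit genes, 27 large-subunit genes (3 of them the stalk genes Rplp0, Rplp1 and Rplp2), 6 entries whose symbol marks a pseudogene, and Rps19bp1, which the symbol rule admits although it encodes a protein that binds Rps19 and is no part of the ribosome.

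The mice came from a cross of C57BL/6J with C3H/HeJ, both parents on an ApoE null background that all the F2 animals therefore share, and ate a Western diet high in fat from week 8 to week 24 of age. Females and males were included, but no label gives the sex or the genotype of a mouse, so the mice form a single group and nothing was compared between labelled groups. Every value is a log2 ratio of a mouse's RNA over the pool, read as such because the deposited scale and direction are not stated. A ratio against a pool shows how a gene varies between mice and nothing about its level, so neither levels of different genes nor the tissue label could be checked by abundance. Of 16 adipocyte genes listed 10 had a kept probe.

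Each ribosome holds 1 copy of nearly every ribosomal protein, so cells make these proteins in matched amounts. In vertebrates their messenger RNAs begin with a pyrimidine tract (the TOP motif) through which the mTOR kinase controls their translation, and their genes are often used as references for quantitative PCR. The mouse genome also holds very many processed pseudogenes of these genes, some nearly identical to the parent. Probe sequences were not used here, so the signal of a probe cannot be assigned among such copies.

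Some arrays stood apart before any result is given. In 48 arrays a score of 11 epididymis genes was at least 1.82, against at most 0.74 in the other 247. The Y-linked gene Eif2s3y fell into a cluster of 153 mice at or above -0.10 and a cluster of 142 mice at or below -4.16 (log2), here called Eif2s3y-high and Eif2s3y-low mice, and all 48 arrays with epididymis transcripts were Eif2s3y-high. Array medians of the log2 ratios ran from -0.17 to 0.13. No label mentions repeated arrays, and technical error is therefore part of every spread given here.

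The filter on missing values removed many more ribosomal protein probes than others, 42 of 183 (23.0%) against 1.94% of the 23204 other probes. Rpl14, Rpl37a, Rpl38, Rps12, Rps26 and Rps29 lost all their probes this way. The best probe of Rpl38 was measured on 89.8% of arrays, just below the limit, and the kept probe closest to it from above, one of Rps15, on 92.2%. The best probes of Rpl14 and Rps12 were measured on 6.78% and 8.14% of arrays. Why values are missing was not given in the sources used here.

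Most ribosomal protein genes varied together from mouse to mouse, but a sizeable minority did not. With each gene represented by its most variable probe, the median r of a gene with the mean of the other 41 was 0.54, and 23 of 42 genes had an r above 0.5. Among the 22753 probes that are no members, 1.81% had an r above 0.5 with the mean of the members. A further 7 genes had an r below 0, against 54.1% of those other probes. These correlations are descriptions over the same 295 arrays, which share the array medians. The mean of the members itself had an r of -0.30 with the array median, and single members ran from -0.66 to 0.40. With array medians removed 23 genes were again above 0.5, and 5 below 0.

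The large-subunit genes Rpl34 (r = 0.88), Rpl12 (0.87), Rpl6 (0.86), Rpl41 (0.83), Rpl10 (0.83) and Rpl10a (0.81) followed the other members most closely. Rpl12 sits at the base of the stalk that recruits translation factors, and Rpl10 joins the large subunit late in its assembly. Among the small-subunit genes Rps18 and Rps24 came first, with an r of 0.79 each. The closest pairs were Rpl10 with Rpl10l (r = 0.88), Rps18 with Rps6 (0.87), Rpl12 with Rps24 (0.87), Rpl10a-ps2 with Rps6 (0.85) and Rpl10a with Rps24 (0.85). Rpl10l is an autosomal, testis-enriched copy of the X-linked Rpl10, so these probes may read the same transcripts. The mean of the small-subunit genes and the mean of the large-subunit genes had an r of 0.85.

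Over all 861 pairs of members the mean r was 0.20, and 24.3% of pairs were above 0.5. Among the 23 genes with an r above 0.5 it was 0.59, a value raised by choosing them on r in these same arrays. Not all of these 23 varied with each other, and their lowest pair was Rps15 with Rpl19 (r = 0.0088). The mean pairwise r was 0.22 in Eif2s3y-high mice, 0.20 in Eif2s3y-low mice and 0.20 without the arrays with epididymis transcripts. In the lower, middle and upper range of mouse number it was 0.20, 0.21 and 0.21. By subunit, 4 of 8 small-subunit and 17 of 27 large-subunit genes were above 0.5, with a median r of 0.44 and 0.73. This order turned round with the mean of each gene's probes, when 7 of 8 small-subunit and 19 of 27 large-subunit genes were above 0.5, with a median of 0.72 and 0.63. Of the 6 pseudogene symbols 2 were above 0.5, Rpl10a-ps2 at 0.57 and Rps24-ps2 at 0.52.

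**Figure D1:**
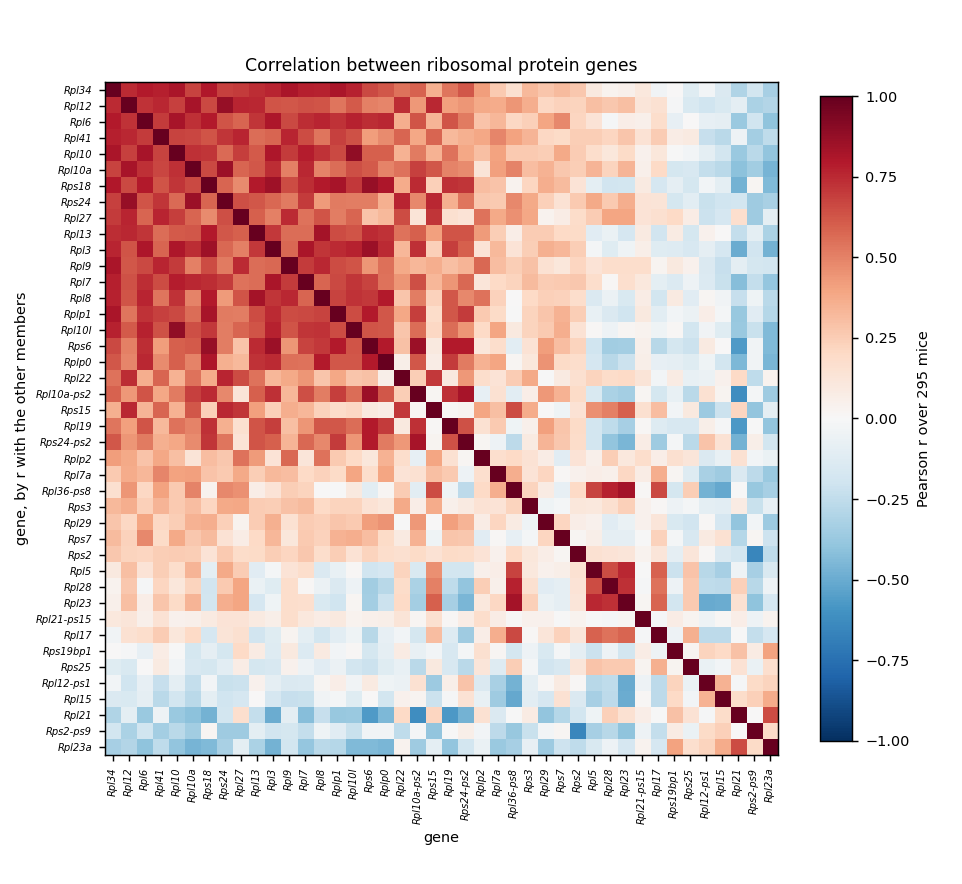
Pearson r over 295 mice between the 42 genes, each by its most variable probe, with both axes ordered by r with the mean of the other members. The upper left block holds the 23 genes with an r above 0.5, whose pairs reach down to an r of 0.0088 (Rps15 with Rpl19). A small block further down holds Rpl5, Rpl28, Rpl23, Rpl17 and Rpl36-ps8.

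At the other end, by the most variable probe, stood Rpl23a (r = -0.37), Rps2-ps9 (-0.32), Rpl21 (-0.28), Rpl15 (-0.19), Rpl12-ps1 (-0.14), Rps25 (-0.047), Rps19bp1 (-0.013) and Rpl17 (0.11). For Rpl23a and Rpl21 this holds for that probe only. With the mean of each gene's probes both had an r of 0.55 with the other members. The other genes named here have 1 kept probe each. Rps25 is a small-subunit protein that some viral messages need for initiation. The most negative pairs, again by the most variable probes, were Rps2 with Rps2-ps9 (r = -0.65), Rpl10a-ps2 with Rpl21 (-0.62) and Rpl19 with Rpl21 (-0.57). A separate group moved together within the list, as Rpl23 with Rpl36-ps8 (r = 0.83) shows, while Rpl15 ran against both of them (-0.50 with Rpl23 and -0.52 with Rpl36-ps8).

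Which probe stood for a gene decided many of these values. Of 141 probes, 72 had an r above 0.5 with the other members (28 of them above 0.8), 45 lay between 0 and 0.5 and 24 were below 0. At least 1 probe above 0.5 was found for 31 of the 42 genes, and 18 genes had a probe above 0.5 and another below 0.1. Over 27 genes with several probes the 2 most variable probes had a median r of 0.54 with each other, against 0.24 for 1240 other genes with several probes. Over all 374 pairs of probes of the same member gene the median was 0.20, against 0.15 for 9496 pairs of different member genes. No value over all pairs is given here for other genes, so better agreement of member probes is not shown.

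The probes that disagreed most belonged to Rpl7 (r = -0.24 between the 2 most variable), Rpl19 (-0.20), Rpl8 (-0.19), Rpl23a (-0.19) and Rplp0 (-0.17). Rpl23a, which has 9 kept probes, ran from -0.37 to 0.74 with the other members, and Rpl29, which has 15, from -0.31 to 0.66. Rps7, whose protein binds the p53 regulator Mdm2, had probes at 0.87 and 0.82 beside its most variable one at 0.28. Rps3, which lines the entry of the messenger RNA channel, had a probe at 0.86 beside its most variable one at 0.33. All 3 probes of Rpl12 lay at 0.86 or above, all 3 of Rps18 at 0.79 or above and all 6 of Rpl41 at 0.78 or above. With the mean of each gene's probes in place of the most variable one, 27 of 42 genes were above 0.5, 4 were below 0, and the mean pairwise r was 0.28.

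**Figure D2:**
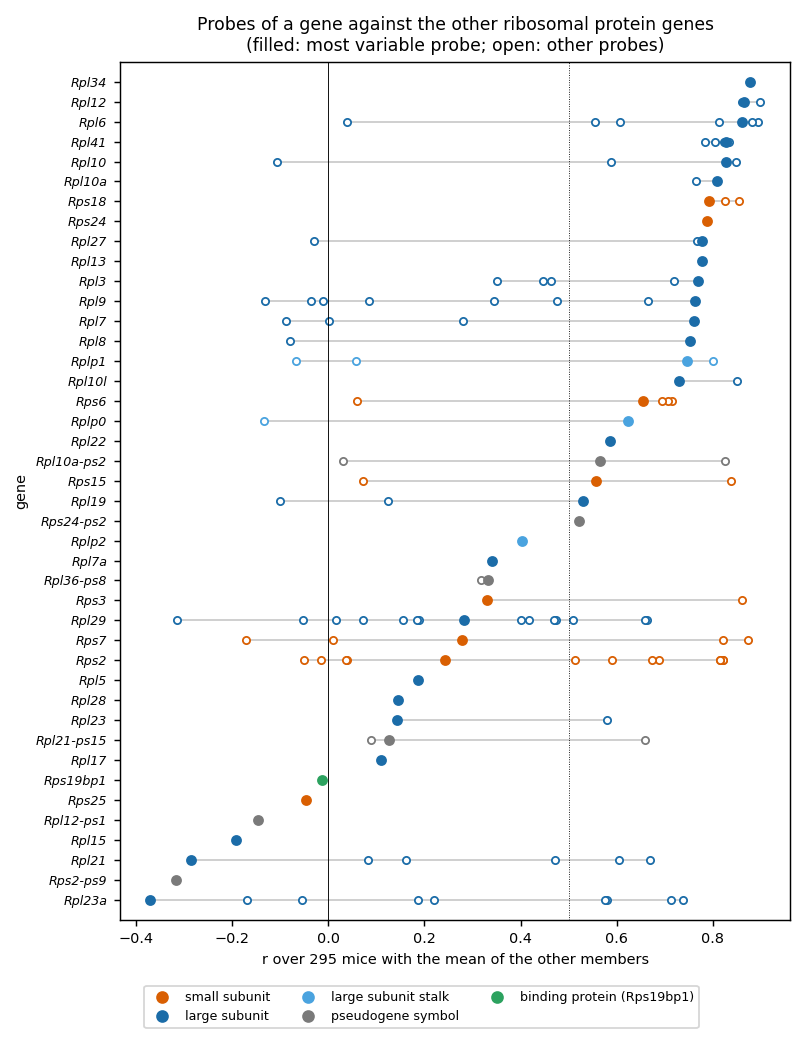
Pearson r over 295 mice (horizontal axis) between each of the 141 probes and the mean of the other members, by gene (vertical axis). Filled points are the most variable probe of a gene, open points its other probes, a grey line joins the probes of a gene, and the dotted line marks 0.5. Rpl12, Rps18 and Rpl41 have all their probes at the right, while Rpl23a spans -0.37 to 0.74 and Rpl29 -0.31 to 0.66.

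Promoters of 28 of the 42 genes were matched by symbol in RefSeq (GRCm38.p6), 33 windows from 250 bases before to 50 bases after the start. The letters CTTCCG, the core of sites bound by ETS family factors, were found on either strand in 57.6% of those 33 windows, against 16.9% of all 32851. The pyrimidine run CTTTC on the sense strand, between 10 bases before and 20 bases after the start, was found in 15.2% against 3.74%. TATAAA on either strand was found in 9.09% against 13.6%. CTTCCG and CTTTC can share at most 1 base, and 4 windows held both. The 18 genes with CTTCCG in a window had a median r with the other members of 0.47, against 0.75 for the 10 without it, so the letters were not confined to the genes that varied together. Below are 3 large-subunit genes and 1 small-subunit gene from among those that followed the list, and Rps3, whose probes differ. Each reads 5′ to 3′ with CTTCCG or its reverse complement CGGAAG in capitals.
Rpl12, chr2:32961462-32961761, plus strand: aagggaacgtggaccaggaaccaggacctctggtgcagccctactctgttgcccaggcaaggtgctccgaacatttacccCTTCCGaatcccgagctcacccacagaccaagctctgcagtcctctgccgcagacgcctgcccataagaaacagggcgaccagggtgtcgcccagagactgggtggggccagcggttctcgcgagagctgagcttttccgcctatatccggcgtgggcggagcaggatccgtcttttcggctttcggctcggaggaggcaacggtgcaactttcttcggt
Rpl6, chr5:121204251-121204550, plus strand: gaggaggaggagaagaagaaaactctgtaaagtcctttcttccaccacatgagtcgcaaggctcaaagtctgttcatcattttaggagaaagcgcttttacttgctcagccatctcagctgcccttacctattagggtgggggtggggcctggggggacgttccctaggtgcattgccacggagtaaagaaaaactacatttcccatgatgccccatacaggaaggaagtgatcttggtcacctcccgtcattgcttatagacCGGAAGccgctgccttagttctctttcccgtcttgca
Rpl41, chr10:128549119-128549418, minus strand: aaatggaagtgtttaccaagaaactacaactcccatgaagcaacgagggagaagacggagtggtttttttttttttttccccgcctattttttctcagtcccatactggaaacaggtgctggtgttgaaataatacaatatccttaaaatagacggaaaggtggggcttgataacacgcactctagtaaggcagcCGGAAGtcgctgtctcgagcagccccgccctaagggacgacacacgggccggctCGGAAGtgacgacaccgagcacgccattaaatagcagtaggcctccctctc
Rps18, chr17:33955616-33955915, minus strand: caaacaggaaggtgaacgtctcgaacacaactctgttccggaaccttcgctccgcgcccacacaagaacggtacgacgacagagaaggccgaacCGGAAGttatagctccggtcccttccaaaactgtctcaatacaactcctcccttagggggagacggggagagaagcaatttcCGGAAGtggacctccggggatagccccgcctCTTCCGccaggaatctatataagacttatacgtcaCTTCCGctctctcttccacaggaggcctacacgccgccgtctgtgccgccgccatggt
Rps3, chr7:99483660-99483959, minus strand: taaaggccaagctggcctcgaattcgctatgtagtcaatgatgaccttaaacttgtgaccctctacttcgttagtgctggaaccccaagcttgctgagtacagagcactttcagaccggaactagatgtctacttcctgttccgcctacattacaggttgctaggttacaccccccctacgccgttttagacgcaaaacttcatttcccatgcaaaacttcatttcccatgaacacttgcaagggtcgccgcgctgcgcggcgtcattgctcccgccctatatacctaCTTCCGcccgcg
Rps18 holds these letters 4 times, Rpl41 2 times and the others 1 time each.

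By their most variable probes, the members had a spread ordinary for this array. The median SD of the 42 genes was 0.30 on the log2 scale, against 0.29 for all 22894 probes and 0.31 for the most variable probes of all 11454 named genes. With the mean of each gene's probes it was 0.22 for the members, and no such value is given here for other genes. Probe by probe, the median SD was 0.27 over the 141 member probes, and 56 of them were above the median of all probes. By the most variable probe, the median SD was 0.31 over the 8 small-subunit genes and 0.30 over the 27 large-subunit genes.

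The widest were Rpl7a (SD 0.82 ± 0.03, SE, n = 295), Rpl21-ps15 (0.75), Rps3 (0.69), Rpl23 (0.64), Rps7 (0.57), Rps2-ps9 (0.46), Rps2 (0.41) and Rpl3 (0.39). The narrowest were Rps25 (0.12), Rps19bp1 (0.15), Rpl28 (0.15), Rpl15 (0.17) and Rpl17 (0.18). Rpl34 ran from -0.72 through a median of 0.045 to 0.95, and its central 90% of mice spanned 1.99-fold. Rpl12 ran from -0.71 through -0.053 to 0.89 and spanned 2.06-fold. Over the 23 genes with an r above 0.5 the SD ran from 0.24 (Rpl13) through a median of 0.30 to 0.39 (Rpl3).

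Rps6, the small-subunit protein phosphorylated by the S6 kinases, ran from -1.28 through 0.030 to 1.21. Rps25 ran from -0.37 through 0.11 to 0.49, the narrowest range of the list at a 1.31-fold span. Rps3 ran from -1.77 through -0.068 to 1.39 and spanned 4.63-fold. Of the 5 widest genes, Rpl7a had the highest r with the other members, at 0.34, next to Rps3 at 0.33. Without the arrays with epididymis transcripts Rpl7a was at 0.25, below Rps3 at 0.35 and Rpl23 at 0.27.

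**Figure D3:**
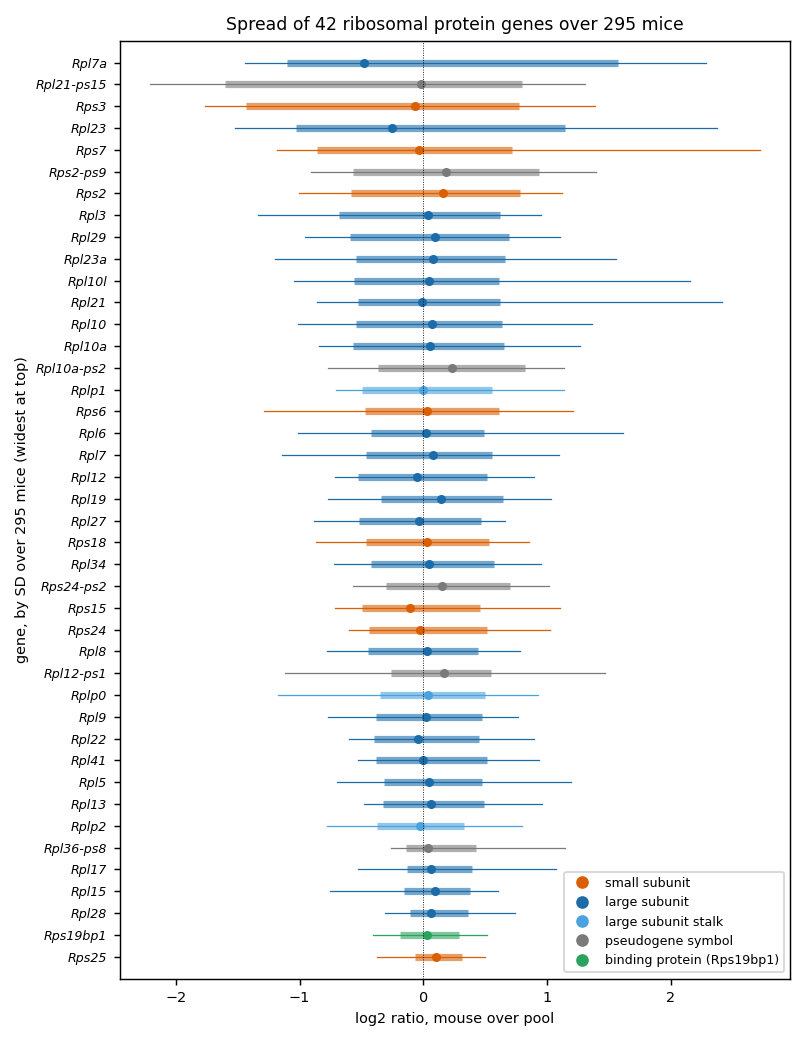
Log2 ratio of each mouse's RNA over the pool (horizontal axis) for the 42 genes by their most variable probe (vertical axis, widest SD at the top). Thin lines run from the lowest to the highest of 295 mice, thick bars cover the central 90% and points are medians. Rpl7a, Rpl21-ps15, Rps3, Rpl23 and Rps7 have the largest SDs, and Rps25 the smallest.

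The widest probes had company outside the list. For each of 12376 probes with a chromosome the 20 most similar probes were looked up, and at least 10 of them lay on the probe's own chromosome for 0.889% of probes and for 4 of the 136 member probes with a chromosome. Those 4 belong to Rps3, Rps2, Rps2-ps9 and Rpl29. Without the arrays with epididymis transcripts there were 5, the fifth being another probe of Rpl29.

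Rps3, on chromosome 7, had 18 of its 20 most similar probes there, led by the tripartite motif genes Trim30d (r = 0.84) and Trim34a (0.74), with the mitochondrial ribosomal protein gene Mrpl48 at -0.69. With a limit of -0.75, chosen after the values were seen, 64 mice lay below (the highest at -0.76) and 231 above (the lowest at -0.73). The other Rps3 probe had an r of 0.33 with this one. Of the 64 mice 37 were Eif2s3y-high, as were 116 of the 231.

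Rps2, the small-subunit protein at the messenger RNA entry, is on chromosome 17. There its probe followed the sulfhydryl oxidase gene Gfer (r = 0.80), Decr2 (0.75) and the MHC gene H2-Q7 (0.75), and ran against Gnptg (-0.73). Rps2-ps9, on the same chromosome, showed the mirror image, with Gnptg at 0.80 and Gfer at -0.71. A probe of Rpl29, on chromosome 9, followed Rnf7 (r = 0.77) and ran against Nprl2 (-0.64).

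Rpl21-ps15 carries a gene identifier on the X chromosome, but its widest probe moved most closely with genes of chromosome 5, Hmgb1 (r = -0.71) and Mafk (-0.64), and with a probe of Rpl21 (0.47), which lies on chromosome 5. The lowest 59 mice ended at -0.82 and the other 236 began at -0.64. The r with Hmgb1 was -0.72 in the other 247 arrays, those without epididymis transcripts.

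Rpl7a ran from 0.22 through 1.39 to 2.29 in the 48 arrays with epididymis transcripts, against -1.44 through -0.55 to 1.31 in the other 247. The ranges overlap, and its SD was 0.52 and 0.45 within them, against 0.82 over all mice. Its closest probes were Adam28 (r = 0.95), the epididymal lipocalin gene Lcn10 (0.95) and Gpx6 (0.94), which kept an r of 0.91, 0.87 and 0.82 without the 48 arrays. The epididymis score itself had an r of 0.85 with Rpl7a over all mice and 0.29 without them.

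The widest probe of Rps7 followed Tnfrsf1a (r = 0.92), Isoc2a (0.91) and Fkbp1a (0.91), and 6 mice, all Eif2s3y-high and 2 of them with epididymis transcripts, reached 1.85 or more while the highest of the other 289 was at 0.998. The widest probe of Rpl23 followed Cst10 (r = 0.98), Dlx2 (0.97) and Gmds (0.96), which also held in both Eif2s3y clusters (0.96 and 0.98 for Cst10 in Eif2s3y-high and Eif2s3y-low mice). The part that probe sequence plays in these relations was not tested.

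**Figure D4:**
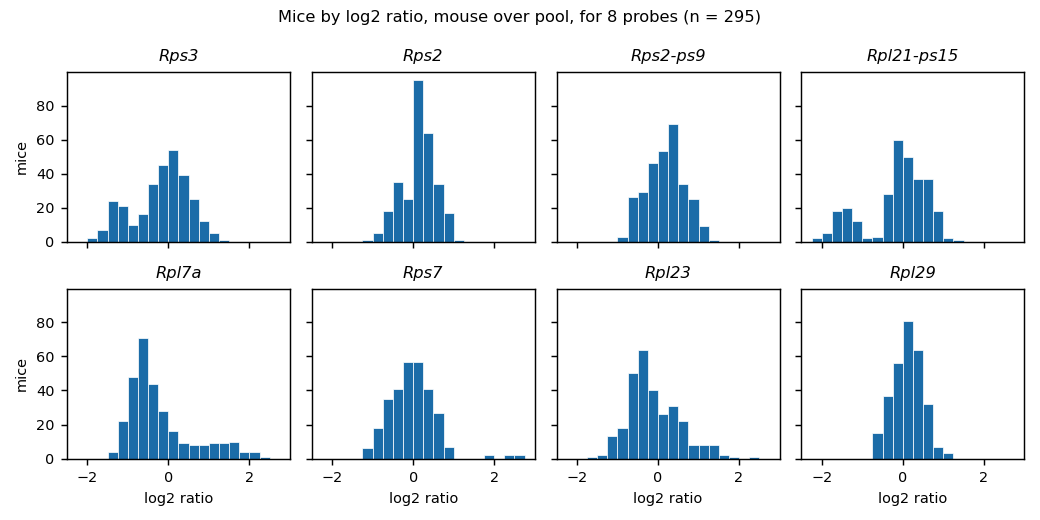
Number of mice (vertical axis) by log2 ratio over the pool (horizontal axis, bins of 0.25) for 8 member probes in 295 mice; for Rpl29 the probe with neighbours on its own chromosome is shown. Rps3 and Rpl21-ps15 each have a lower peak, with 64 and 59 mice below -0.75, Rpl7a has a long upper tail, and 6 mice stand apart for Rps7.

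Of 12 ribosomal genes listed as references for quantitative PCR, 5 were measured. Rplp0, the scaffold of the stalk, had 2 probes with an SD of 0.28 and 0.19. Rpl19 had 3 probes at 0.30, 0.22 and 0.15, Rps18 had 3 at 0.30, 0.29 and 0.25, and Rpl27 had 3 at 0.30, 0.28 and 0.27. Rps3 had 2 at 0.69 and 0.32. The probes of Rps18 followed each other (r = 0.96 between the 2 most variable) and those of Rplp0 did not (-0.17). Among reference genes outside the ribosome, the TATA-binding protein gene Tbp had an SD of 0.15, the RNA polymerase subunit gene Polr2a 0.17, Tfrc 0.22 and Hprt 0.25. Gusb was widest at 0.63, Ywhaz had 2 probes at 0.53 and 0.31, and the most variable probe of Ppia stood at 0.34 and that of Pgk1 at 0.30. The median SD of the 11 measured genes of that list, by their most variable probe, was 0.30. The 4 probes of Actb ran from 0.21 to 0.41 and the 36 probes of Gapdh from 0.14 to 0.39. These SDs compare spread between mice after the authors' scaling of each array and say nothing about levels.

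Genes outside the list that followed the mean of the members most closely were Gm4986 (r = 0.88), Gm4832 (0.85), Gm4859 (0.84), Gm11517 (0.84), Tpt1 (0.78), Ly6g6c (0.77), Pdcd2 (0.75), Ssr4 (0.74), Krtcap2 (0.73) and Naca (0.72). Gm4986, Gm4859 and Gm11517 are annotated as pseudogenes. Tpt1 encodes the translationally controlled tumour protein, itself from a TOP messenger RNA, Naca a chaperone of nascent chains at the ribosome, Pdcd2 a chaperone of Rps2, and Ssr4 a subunit of the translocon-associated complex. The most opposed genes were Pcnx (r = -0.77), Zfp423 (-0.77), Chst12 (-0.75), Afap1 (-0.73) and Hipk2 (-0.73). Zfp423 is a transcription factor of fat cell precursors. In Eif2s3y-high and Eif2s3y-low mice the r of Tpt1 was 0.82 and 0.76, and that of Zfp423 was -0.76 and -0.77.

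Of 23 genes measured from a translation list, 9 had an r above 0.3 with the mean of the members and 1 below -0.3. Their median was 0.14. The list also holds genes that are no translation factors, such as Tpt1 and Naca. Over 11412 other named genes 6.28% were above 0.3 and 15.8% below -0.3, with a median of -0.030. The closest genes of the list were Tpt1 (0.78), Naca (0.72) and the initiation factor gene Eif3h (0.67). The most opposed were Eif4ebp1 (-0.41), whose protein is an mTOR target that holds back the cap-binding factor, and Eif2b1 (-0.29). Eif4ebp1 is also on the list of mTOR and Myc regulation below and counts among the genes below -0.3 there.

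Genes that build ribosomes did not move as 1 group with the proteins. Of 22 measured, 4 were above 0.3 and 4 below -0.3, with a median of -0.028. Nop58 (0.46), a core protein of box C/D particles, Npm1 (0.38), the nucleolar chaperone nucleophosmin, and Utp14a (0.31) were highest. The most opposed were Nol6 (-0.68) and Polr1a (-0.61), the largest subunit of RNA polymerase I. Of 21 genes of mTOR and Myc regulation none was above 0.3 and 7 were below -0.3, with a median of -0.074. Mlst8 (0.28), Max (0.17) and Sesn1 (0.098) were highest, and Tsc2 (-0.67) and Mtor itself (-0.61) most opposed.

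Proteasome genes, another set with fixed stoichiometry, had 7 of 27 above 0.3 and 0 below -0.3, with a median of 0.20, led by Psmb3 (0.46), Psma5 (0.40) and Psmb5 (0.39), with Psmd4 (-0.27) and Psmd3 (-0.24) lowest. Of 11 reference genes outside the ribosome 2 were above 0.3, Ppia (0.42) and Nono (0.41), followed by Gusb (0.19), and Gapdh (-0.27) and Ywhaz (-0.25) were lowest. Rpsa, a small-subunit gene that the symbol rule does not reach, had an r of -0.090.

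Every probe was fitted on 6 measures, with a Benjamini-Hochberg adjusted p under 0.05 in limma as the threshold. Lep and the adipocyte, cell cycle, macrophage and B cell scores asked whether ribosomal protein genes moved with the make-up of the tissue. Rplp0 is itself a member and no measure of that make-up. In bulk tissue fewer cells of a type and less RNA per cell cannot be told apart. Scores average the z-scores of the listed genes.

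Ribosomal protein genes fell as adipocyte genes rose. Of 42 genes 26 were lower and 5 higher with the adipocyte score, against 27.1% lower and 43.8% higher of all probes, with a median r of -0.36 against 0.077. By probe, 87 of 141 were lower and 23 higher. The most negative were Rpl10l (r = -0.61, -0.28 ± 0.02 log2 units per unit of score, SE, adjusted p = 9.2e-30), Rpl12 (r = -0.56, -0.21 ± 0.02, adjusted p = 5.14e-25) and Rpl13 (r = -0.56, -0.16 ± 0.01, adjusted p = 1.34e-24). The most positive were Rps25 (r = 0.51, 0.074 ± 0.0074, adjusted p = 2.43e-19), Rpl23a (r = 0.33, adjusted p = 2.85e-08) and Rpl21 (r = 0.26, adjusted p = 1.43e-05). Seen from the other side, 8 of the 10 adipocyte genes had an r below -0.3 with the mean of the members and none above 0.3, from -0.57 for the lipid droplet gene Plin1 to -0.27 for Retn.

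More members were lower than higher within each of these sets of mice. In Eif2s3y-high mice 26 genes were lower and 5 higher, against 22.1% and 41% of all probes. In Eif2s3y-low mice 26 were lower and 2 higher, against 19.7% and 24.4%. In the 247 arrays without epididymis transcripts 25 were lower and 3 higher, against 22.5% and 26.3%. Rpl12 had an r of -0.66 in Eif2s3y-high and -0.67 in Eif2s3y-low mice, and -0.52, -0.60 and -0.61 in the lower, middle and upper range of mouse number. Rpl10l had -0.62 and -0.43 in the clusters and -0.48 without the arrays with epididymis transcripts. The positive relations of Rpl23a and Rpl21 rested on their most variable probes: with the mean of each gene's probes their slopes were -0.016 (adjusted p = 0.204) and -0.032 (adjusted p = 0.00163). Over all probes the higher share of calls was 61.8%, and 47.8% with array medians removed. The members then numbered 28 lower and 4 higher, against 33.4% lower and 30.6% higher of all probes.

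With Lep, the leptin gene of fat cells, 15 genes were lower and 7 higher, against 28.3% lower and 38.7% higher of all probes. Rps24-ps2 (r = -0.37, adjusted p = 1.98e-10), Rpl13 (-0.33, adjusted p = 2.63e-08) and Rpl22 (-0.32, adjusted p = 7.11e-08) were the most negative. Rpl23 (0.41, adjusted p = 3.39e-12), Rpl28 (0.36, adjusted p = 1.27e-09) and Rpl17 (0.33, adjusted p = 2.57e-08) were the most positive. The value of Rpl23 belongs to its most variable probe, which had an r of 0.22 with the other kept probe of the gene. With the other members these 2 probes had an r of 0.14 and 0.58. Without the 48 arrays 7 genes were lower and 10 higher, against 27.6% and 32.5% of all probes, a smaller share than the background in both directions. The higher share of calls over all probes was 57.8%, and 48.0% with array medians removed.

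With the cell cycle score 22 genes were higher and 4 lower, against 23.7% and 23.6% of all probes. Rpl12 (r = 0.44, adjusted p = 2.98e-14), Rpl13 (0.43, adjusted p = 6.68e-14) and Rps24-ps2 (0.42, adjusted p = 7.02e-13) led, and Rps25 (-0.40, adjusted p = 2.29e-11), Rpl17 (-0.22, adjusted p = 0.00058) and Rpl7a (-0.21, adjusted p = 0.000626) were lowest. The r of Rpl7a was -0.029 without the arrays with epididymis transcripts. With array medians removed its slope was -0.15 with an adjusted p of 0.0519. Of 14 cell cycle genes 7 had an r above 0.3 with the mean of the members and none below -0.3.

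With the macrophage score 21 genes were higher and 5 lower, against 27.1% and 32.4% of all probes. Rpl10a-ps2 (r = 0.44, adjusted p = 1.27e-14), Rps24-ps2 (0.38, adjusted p = 1.21e-10) and Rps7 (0.38, adjusted p = 1.18e-10) led, and Rps25 (-0.37, adjusted p = 9.05e-10), Rpl21 (-0.33, adjusted p = 3.87e-08) and Rplp2 (-0.21, adjusted p = 0.000545) were lowest. In Eif2s3y-high mice 13 genes were higher and 5 lower, against 29.6% and 21.7% of all probes, so the share of members called higher was near the background there. In Eif2s3y-low mice 18 were higher and 4 lower, against 18.9% and 23.9%. The fits over all mice hold no term for the cluster. Within the clusters Rps7 had an r of 0.32 in Eif2s3y-high mice and -0.19 in Eif2s3y-low mice. In the same order Rpl10a-ps2 had 0.31 and 0.35, and Rps24-ps2 0.41 and 0.23. Rps25 had -0.27 and -0.19, Rpl21 -0.18 and -0.29, and Rplp2 -0.16 and -0.19. The r of the mean of the members was 0.22 with the macrophage score and -0.51 with the adipocyte score.

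With the B cell score 20 genes were higher and 3 lower, against 27.9% and 26.7% of all probes. Rps24 (r = 0.48, adjusted p = 9.28e-17), Rps15 (0.44, adjusted p = 3.72e-14) and Rpl12 (0.43, adjusted p = 1.89e-13) led, and Rps19bp1 (-0.22, adjusted p = 0.000654), Rpl23a (-0.17, adjusted p = 0.00848) and Rps2-ps9 (-0.16, adjusted p = 0.0124) were lowest. The slope of Rpl23a turned to 0.056 with the mean of its probes (adjusted p = 1.79e-05), and that of Rps2-ps9 was 0.033 in Eif2s3y-high mice (adjusted p = 0.676). The r of the mean of the members was 0.27 with the B cell score, 0.25 with a T cell score, 0.27 with a score of steroidogenic genes and 0.30 with the epididymis score. The part of these other cells in the relations was not tested.

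**Figure D5:**
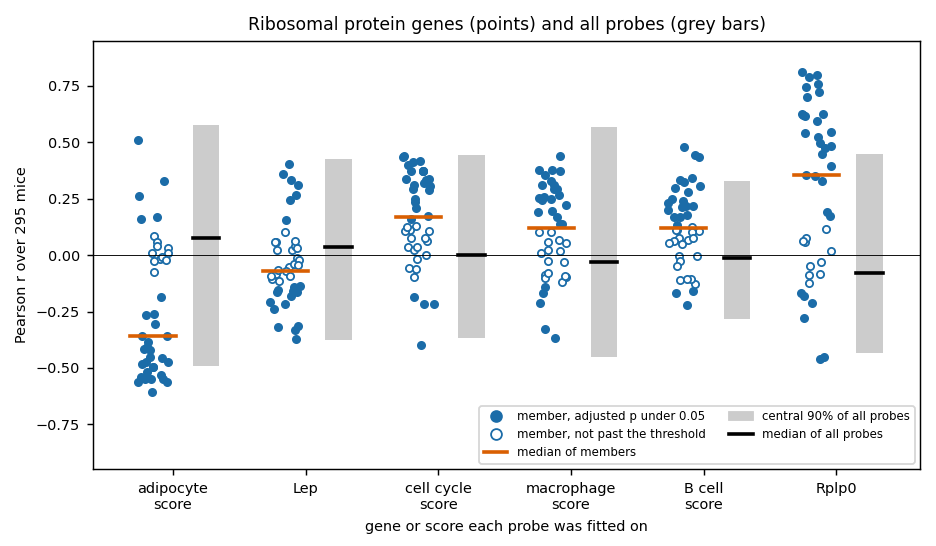
Pearson r over 295 mice (vertical axis) of the member genes with each of 6 measures (horizontal axis). Filled points are members with an adjusted p under 0.05 in limma, open points other members, orange lines medians of members, grey bars the central 90% of all probes and black lines their medians. Members lie lowest with the adipocyte score (median -0.36) and highest with the most variable probe of Rplp0 (median 0.36, 41 genes).

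Rplp0 stands for a common reference gene, so each probe was also fitted on its most variable probe. The counts belong to that probe, whose r with the other members was 0.62, against -0.13 for the other Rplp0 probe. Of the 41 other genes 25 were higher and 6 lower, against 24.5% and 44.5% of all probes. Rps18 (r = 0.81, 0.88 ± 0.04 log2 units per log2 unit of Rplp0, adjusted p = 4.81e-67), Rpl8 (0.80, 0.80 ± 0.04, adjusted p = 9.98e-63) and Rps6 (0.79, 0.95 ± 0.04, adjusted p = 1.42e-61) were closest. Rpl23a (-0.46, adjusted p = 7.59e-16), Rpl21 (-0.45, adjusted p = 3.76e-15) and Rpl28 (-0.28, adjusted p = 4.39e-06) ran against it. With the mean of their probes the slope of Rpl21 was 0.096 (adjusted p = 0.092) and that of Rpl23a -0.030 (adjusted p = 0.689). In that setting, with Rplp0 averaged too, the median r of the members was 0.23 and the highest 0.64. There 28 members were higher and 3 lower, against 26.7% and 39.7% of named genes and unnamed probes. Over all probes the higher share of calls on the most variable probe was 35.5%, and 47.7% with array medians removed. The members then numbered 29 higher and 4 lower, against 31.5% higher and 34.6% lower of all probes.

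Where the slope on the B cell score differed between Eif2s3y clusters, that of ribosomal protein genes was mostly lower in Eif2s3y-high mice. In Eif2s3y-high mice 4 genes were higher and 5 lower with the B cell score (16.3% and 12% of all probes), and in Eif2s3y-low mice 29 were higher and 3 lower (28.4% and 29.4%). Rpl12 had an r of 0.17 in Eif2s3y-high and 0.59 in Eif2s3y-low mice, and Rps24 0.25 and 0.60. The difference of the slopes, tested after these counts were seen, was called for 16 of 42 genes, 15 of them lower in Eif2s3y-high mice, against 19.3% lower and 18.1% higher of all probes. Leaving out the arrays with epididymis transcripts, it was called for 12, all lower in Eif2s3y-high mice, against 19.9% lower and 13.7% higher. Counting both directions, the share of members called was near that of all probes, and below it without those arrays.

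With the cell cycle score 7 genes were higher and 5 lower in Eif2s3y-high mice (26.9% and 18% of all probes), and 26 were higher and 4 lower in Eif2s3y-low mice (16.8% and 22.4%). The slopes also differed over all mice, with 24 of 42 slopes lower and 3 higher in Eif2s3y-high mice, against 12.1% and 23.2% of all probes. Without the arrays with epididymis transcripts 1 slope was lower and 0 were higher, against 3.12% and 6.07%. The r of Rpl12 with the cell cycle score was 0.17 in Eif2s3y-high mice, 0.52 in the 105 of them without epididymis transcripts and 0.63 in Eif2s3y-low mice. Among those 105 mice 20 genes were higher and 2 lower with the cell cycle score, against 19.8% and 20.9% of all probes.

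For Lep, 11 of 42 slopes were lower and 4 higher in Eif2s3y-high mice, against 13.6% and 22.4% of all probes. Without the arrays with epididymis transcripts limma called 0 of the 42, when 10.3% and 12.8% of all probes were called. At an unadjusted p under 0.05 in limma there were 9, and the share of all probes at that threshold is not given here. For the macrophage score 8 were lower and 2 higher, against 12.7% and 21.6%, and without those arrays Rps7 was higher and Rpl17 and Rps25 were lower in Eif2s3y-high mice, against 8.64% higher and 7.42% lower of all probes.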

How the data were processed

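Adipose RNA of each of 295 mice (Cy3) was hybridised with a pool of all the RNAs (Cy5), per the labels. The number of mice is 295 in the text on the series and 330 in that on single samples, and 1 sample whose number differs between title and source name was numbered by its title. The values are log10 ratios deposited by the authors for 23387 probes, and their background correction and scaling were not given in the sources used here. Base, centring and direction were read from the values. They ran from -2 to 2, with 527 at a limit. Array means ran from -0.00991 to 0.0250 and array medians from -0.0521 to 0.0387. The slope of probe mean on variance was -1.63, where a mouse-over-pool ratio would give -1.15 on a log10 scale, -0.50 in natural logs and -0.35 on a log2 scale. The sign of the slope gives the direction, while the base is less certain. Of 43365 array pairs 944 had r under -0.3, all of them across the split in epididymis transcripts (lowest -0.52, median 0.37, highest 0.90), and the direction was kept because the labels state the dyes. Correlations and calls do not depend on the base.

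Multiplication by 3.32 gave log2 ratios. Probes measured on at least 90% of arrays were kept (22894 of 23387) and 7762 gaps, part of the 1.02% of values missing, were filled with the probe mean. Symbols came from the platform annotation, updated through Entrez identifiers to RefSeq GRCm38.p6, where 12652 probes matched. Of all probes 13644 had 1 symbol, 48 several and 9695 none, and 9 member probes with several symbols were left out. A gene stands by its most variable probe. The number of arrays limits the precision.

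Every kept probe was fitted on Lep, on Rplp0 or on a score with limma 3.58.1 in R 4.3.3, adjusted by Benjamini-Hochberg over all probes. A difference of slopes between Eif2s3y clusters was tested as an interaction term. The fit was tested on simulated data. Python 3.11.15 with NumPy 2.4.6, pandas 2.3.3 and matplotlib 3.10.9 did the rest. Spread and coherence have no test. Where nothing says that samples are separate preparations, p-values measure only the spread between these samples. Alternatives were centring, a covariate, subsets of mice, missing values and the choice of probe.

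The members and the gene lists were chosen with earlier results of these data known. Named members are the 8 largest and 5 smallest SDs, the 8 highest and 8 lowest r with the other members, the 5 genes with the lowest r between their 2 most variable probes (other pairs of probes can rank genes differently), the 3 most positive and 3 most negative called members per measure, and members of the reference and restricted paralog lists. Among other genes they are the 10 highest and 5 lowest r with the mean of the members and, per list, the 3 highest and 2 lowest. Other genes named beside a probe were chosen after their values were seen.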

Additional observations from a re-analysis of the deposited data

Results flagged for a closer look

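The slopes of some members on Lep and on the macrophage score differed between the Eif2s3y clusters by the interaction term in limma (values are Eif2s3y-high minus Eif2s3y-low mice, in log2 units per unit of the measure). For Lep the difference was -1.15 for Rpl7a (adjusted p = 3.85e-07), -0.43 for Rpl10l (adjusted p = 4.93e-05) and -0.38 for Rpl10 (adjusted p = 0.000231). Rpl7a had an r with Lep of -0.36 in Eif2s3y-high and 0.34 in Eif2s3y-low mice, Rpl10l -0.17 and 0.38, and Rpl10 -0.033 and 0.44. Without the arrays with epididymis transcripts these differences were -0.18, -0.18 and -0.19 (adjusted p = 0.261, 0.13 and 0.131).

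For the macrophage score the difference was -0.65 for Rpl7a (adjusted p = 4.24e-07), 0.30 for Rps7 (adjusted p = 5.57e-05) and -0.22 for Rpl10l (adjusted p = 0.00031). Without those arrays it was -0.15, 0.25 and -0.035 (adjusted p = 0.171, 0.0129 and 0.678). All 6 mice whose Rps7 value stood apart were Eif2s3y-high, and their part in the difference was not tested.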

How the results depend on the processing

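Of 108 counts and summary values recomputed under the alternatives 91 stayed within 1.5 times the reported count or kept their value within the spread, and of 288 named slopes 267 kept their direction and call, 14 kept their direction but lost the call and 7 changed sign. Shares in brackets are those of all probes (of named genes and unnamed probes, where probes were averaged). Adjusted for the first principal component, 13 members were higher (30.1%) and 8 lower (27.9%) with Lep, and 2 higher with the adipocyte score (25.5%). Without the arrays with epididymis transcripts 7 were lower with Lep (27.6%), 6 lower with the B cell score (29.0%) and 3 higher with the adipocyte score (26.3%). Without those arrays limma called the slope different between Eif2s3y clusters for 0 members with Lep (23.0%) and 3 with the macrophage score (16.1%). For Lep 9 members had an unadjusted p under 0.05 in limma, and no share of all probes at that threshold is given here. With the mean of each gene's probes 3 were lower with the macrophage score (33.5%), 2 higher with the adipocyte score (44.3%) and 3 lower with Rplp0 (39.7%). In Eif2s3y-high mice 13 were higher with the macrophage score (29.6%), 4 higher (16.3%) and 5 lower (12.0%) with the B cell score and 7 higher with the cell cycle score (26.9%). In Eif2s3y-low mice 9 were lower with Lep (28.6%) and 2 higher with the adipocyte score (24.4%).

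Signs changed with the mean of each gene's probes for Rpl23a with the B cell score (0.056) and the adipocyte score (-0.016), and for Rpl21 with the adipocyte score (-0.032) and Rplp0 (0.096). They changed in Eif2s3y-low mice for Rps7 with the macrophage score (-0.076) and Rpl7a with the cell cycle score (0.048), and in Eif2s3y-high mice for Rps2-ps9 with the B cell score (0.033). The cause was not tested, except that the mean of the probes replaces a probe by others that disagree with it. No paired analysis was possible because the mice form a single group. Fold sizes rest on the log10 reading of the deposited values, and signal over background is not given in the values used here.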
